A study of Homo sapiens with 12 samples.

Results

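PTPRJ, the gene of a receptor-type protein tyrosine phosphatase, was examined with 3 other receptor phosphatase genes (PTPRF, PTPRK and PTPRG) and 5 receptor tyrosine kinase genes (EGFR, ERBB2, ERBB3, MET and FGFR4). The 9 genes were taken by symbol from a count table of 35984 genes. PTPRJ was selected on its difference in counts between the knock-down and control lines, so its level there is described and not tested. The others were chosen by name as receptor phosphatases and receptor tyrosine kinases, but with earlier results of these data known. All 9 were among the 16118 genes that passed the filter on low counts. RNA was sequenced from HepG2, an established human hepatoma cell line of hepatocyte-like cells. There were 4 groups of 3 libraries. DKD cells with TNFα carried retrovirally integrated pRetroSUPER cassettes for shRNAs against the macroH2A1 and macroH2A2 transcripts and received the cytokine TNFα. Untreated DKD cells carried the same cassettes and received the vehicle, PBS with BSA. CTL cells with TNFα and untreated CTL cells carried control shRNAs. All 4 groups spent a night in medium with 0.5% serum, and TNFα was given at 20 ng/mL for 24 hours. Nothing in the labels states that a group's libraries came from separate cultures, and p-values therefore measure the spread among libraries, possibly a technical one. Whether a line was 1 pool or 1 clone is not stated either, and a difference between the lines cannot be told apart from an effect of the knock-down.

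Receptor tyrosine kinases bind growth factors outside the cell and add phosphate to tyrosines inside it, which recruits adaptors and starts the RAS-ERK and PI3K-AKT cascades. Receptor-type protein tyrosine phosphatases are single-pass membrane proteins that remove such phosphates, and many of them act on receptor kinases or on the junction proteins beside them. In the liver, EGFR and the hepatocyte growth factor receptor MET drive regeneration, and FGFR4 carries the signal by which intestinal FGF represses bile acid synthesis. MacroH2A1 and macroH2A2 are variants of histone H2A with a large globular C-terminal domain, and they have been linked to both silent and inducible genes. TNFα signals through NF-kB and through the JNK and p38 kinases, with AP-1 factors among the targets of the kinases.

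Both targeted transcripts were low in the knock-down line. MACROH2A1 averaged 55.5 ± 10.1 CPM (counts scaled to the library total, with TMM factors) in DKD cells with TNFα and 46.2 ± 12.2 in untreated DKD cells, against 268 ± 11 in CTL cells with TNFα and 236 ± 27.4 in untreated CTL cells (SD, n = 3 each). MACROH2A2 averaged 3.96 and 5.11 CPM in the DKD groups with and without TNFα, against 46.4 and 57.8 CPM in the matching CTL groups. Libraries held 30955080 to 42094144 counts. Library 1 of the DKD line stood apart in both treatments: on the first principal component, which took 33% of the variance, it lay at -53.9 with TNFα and at -83.7 untreated, while the other 10 libraries lay between -18.2 and 41.5. Member values are therefore also given from libraries 2 and 3 alone where the difference matters. All 7 hepatocyte markers were detected in every library. Their summed level was 13900 to 17100 CPM in DKD cells with TNFα and 21500 to 29800 in untreated DKD cells, against 10200 to 10600 in CTL cells with TNFα and 15700 to 17300 in untreated CTL cells. Markers of endothelial cells summed to at most 2.49 CPM and those of fibroblasts to at most 1.74 CPM. The 5 leukocyte markers summed to 2.32 to 5.08 CPM with TNFα, against 0.480 to 0.858 CPM untreated. That sum was mostly ITGAM, which reached 4.45 CPM, while CD3E was at 0 and PTPRC reached 0.390 CPM. The part of these marker levels in the results below was not tested. A cell line holds few other cell types, but in bulk RNA fewer cells of a kind and less RNA per cell cannot be told apart.

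PTPRJ (chr11:47980558-48170841, plus strand, GRCh38) encodes a phosphatase with a long extracellular part of fibronectin type III repeats, known to dephosphorylate MET, EGFR and other receptor kinases and to restrain cell growth. It had 24.2, 23.4 and 22.5 CPM in DKD cells with TNFα and 20.7, 19.9 and 20.6 CPM in untreated DKD cells. In CTL cells it had 1.98, 2.84 and 2.47 CPM with TNFα and 2.24, 2.72 and 2.42 CPM untreated. Every DKD library lay above every CTL library, with 757 to 973 counts in the DKD libraries and 81 to 116 counts in the CTL libraries. The difference was 9.62-fold with TNFα (log2 fold change 3.27, SE 0.15, 95% interval 2.93 to 3.6) and 8.28-fold untreated (3.05, SE 0.14, interval 2.72 to 3.38). In both comparisons it was number 38 of 16118 genes in order of fold change. As PTPRJ was chosen for this difference, no p-value is given for it. The spread between libraries was 3.77% of the mean in DKD cells with TNFα and 2.20% in untreated DKD cells, where counting error alone gives 3.23% and 3.50%. It was 17.8% in CTL cells with TNFα and 9.99% in untreated CTL cells, where counting error gives 10% and 10.4%. The difference did not rest on library 1. With libraries 2 and 3 alone it was 3.11 with TNFα and 2.98 untreated, and with any 1 of the 12 libraries left out it stayed between 3.13 and 3.39 with TNFα and between 2.98 and 3.12 untreated.

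No TNFα effect on PTPRJ passed the test in either line. In DKD cells the 3 treated libraries lay above the 3 untreated ones, with group means of 23.4 ± 0.882 and 20.4 ± 0.449 CPM (SD, n = 3 each). The log2 fold change was 0.20 (SE 0.13, 95% interval -0.10 to 0.50), which did not pass edgeR's quasi-likelihood test with Benjamini-Hochberg adjustment over all genes tested (adjusted p = 0.753). In CTL cells the means were 2.43 ± 0.432 CPM with TNFα and 2.46 ± 0.246 CPM untreated, the groups overlapped, and the log2 fold change was -0.02 (SE 0.14, adjusted p = 0.986). In ascending order of the mean, the 2 CTL groups overlapped, while untreated DKD cells lay above both and DKD cells with TNFα above those.

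**Figure D1:**
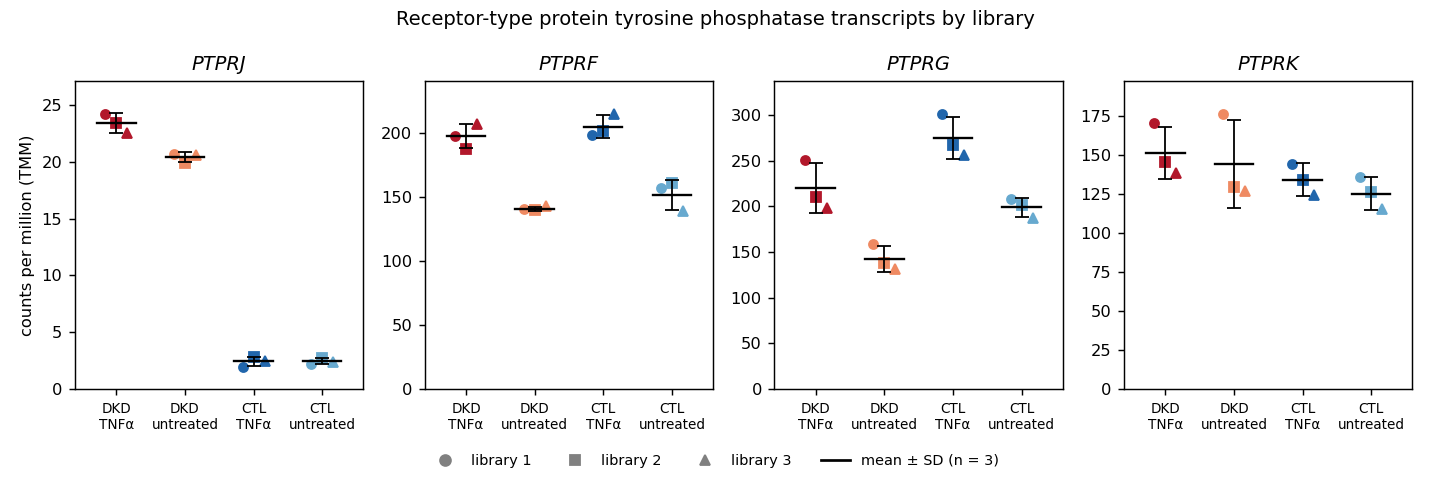
CPM (vertical axis, scaled with TMM factors, from 0) of the 4 receptor phosphatase genes in each of the 4 groups, 1 point per library with the symbol showing the library number, and the mean ± SD of 3 libraries as lines. PTPRJ lies at 19.9 to 24.2 CPM in the 6 DKD libraries and at 1.98 to 2.84 CPM in the 6 CTL libraries, while PTPRF and PTPRG are higher with TNFα than without it in both lines.

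PTPRF and PTPRG, in contrast, rose with TNFα in both lines. PTPRF (chr1:43525187-43623666, plus strand), also called LAR, is a phosphatase with immunoglobulin and fibronectin domains that is known to act on the insulin receptor and at cell junctions. It had 198, 188 and 207 CPM in DKD cells with TNFα, against 141, 140 and 143 CPM in untreated DKD cells. CTL cells had 199, 202 and 215 CPM with TNFα, against 157, 161 and 139 CPM untreated. Treated and untreated libraries did not overlap in either line. The rise was 1.40-fold in DKD cells (log2 fold change 0.49, SE 0.07, adjusted p = 0.00655) and 1.35-fold in CTL cells (0.43, SE 0.07, adjusted p = 0.0119). The lines themselves overlapped, with a DKD to CTL log2 fold change of -0.05 with TNFα (SE 0.07, adjusted p = 0.829) and -0.11 untreated (SE 0.07, adjusted p = 0.530). The call in DKD cells was lost without DKD TNFα library 3 (adjusted p = 0.0502) and when only the 2 groups compared were fitted (adjusted p = 0.123). That in CTL cells was lost without CTL TNFα library 2 (0.0612), CTL TNFα library 3 (0.0616) or CTL untreated library 3 (0.0898).

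PTPRG (chr3:61561569-62297613, plus strand) encodes a phosphatase with a carbonic anhydrase-like outer domain, and it was called both under TNFα and between the lines. It had 251, 210 and 198 CPM in DKD cells with TNFα, against 159, 138 and 131 CPM in untreated DKD cells. CTL cells had 301, 267 and 256 CPM with TNFα, against 208, 201 and 187 CPM untreated. Library 1 was the highest in each of the 4 groups, and the treated libraries were above the untreated ones in both lines. The rise with TNFα was 1.54-fold in DKD cells (log2 fold change 0.62, SE 0.11, adjusted p = 0.0143) and 1.38-fold in CTL cells (0.47, SE 0.11, adjusted p = 0.0485). It was positive in 3 of 3 same-numbered pairs in each line. The call in DKD cells was lost without DKD untreated library 2 (adjusted p = 0.0708) or library 3 (0.0794) and when only the 2 groups were fitted (0.200). That in CTL cells stood close to the threshold: it was lost without any one of 10 of the 12 libraries (adjusted p = 0.0603 to 0.235), all but library 1 of either DKD group, and without the filter on low counts (0.0547). With the library number as a block, which removes only the part of the library 1 shift that the groups share, the adjusted p in CTL cells was 0.000483.

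PTPRG was also lower in the knock-down line. Untreated, every DKD library lay below every CTL library, and the log2 fold change was -0.48 (SE 0.11, 95% interval -0.73 to -0.23, adjusted p = 0.0270), a level 0.717 times that of CTL cells. This call was lost without DKD untreated library 2 or 3 (adjusted p = 0.0943 and 0.0871), without CTL untreated library 1, 2 or 3 (0.0965, 0.0748 and 0.0544) and with only the 2 groups fitted (0.0751). With TNFα the groups did not overlap either, and the log2 fold change was -0.32 (SE 0.11, interval -0.57 to -0.07). That difference did not pass the test (adjusted p = 0.119), but it did with the library number as a block (0.00208), with DESeq2 (0.0419), from libraries 2 and 3 alone (0.00846) and without DKD untreated library 1 (0.0499). An antisense gene, PTPRG-AS1, shares 1207 exon bases with PTPRG, and the strand setting of the counting is not given in the sources used here, so reads of the 2 genes may not have been told apart there.

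PTPRK (chr6:127968779-128520674, minus strand), a phosphatase that binds itself on neighbouring cells and is known to dephosphorylate EGFR and catenins, showed no change that passed a test. It had 170, 145 and 138 CPM in DKD cells with TNFα and 176, 129 and 127 CPM in untreated DKD cells. In CTL cells it had 144, 134 and 124 CPM with TNFα and 136, 126 and 115 CPM untreated. Library 1 was the highest of every group, most of all in untreated DKD cells. DKD and CTL cells overlapped within each treatment, and treated and untreated libraries overlapped within each line. The DKD to CTL log2 fold change was 0.17 with TNFα (SE 0.14, 95% interval -0.14 to 0.49, adjusted p = 0.607) and 0.20 untreated (SE 0.14, interval -0.12 to 0.51, adjusted p = 0.540). The untreated value was 0.09 from libraries 2 and 3 alone, and 0.03 without DKD untreated library 1. The TNFα log2 fold change was 0.07 in DKD cells (interval -0.24 to 0.38) and 0.09 in CTL cells (-0.22 to 0.41).

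EGFR (chr7:55019021-55211628, plus strand), the receptor of EGF, TGF-alpha and amphiregulin, had the largest TNFα response of the 9 genes in both lines. It had 128, 127 and 133 CPM in DKD cells with TNFα, against 78.8, 75.6 and 79.3 CPM in untreated DKD cells. The CTL libraries had 127, 149 and 152 CPM with TNFα, against 71.7, 82.5 and 76.8 CPM untreated. Every treated library lay well above every untreated one, and the 2 untreated groups overlapped, as did the 2 treated groups. The rise was 1.66-fold in DKD cells (log2 fold change 0.73, SE 0.09, adjusted p = 0.00119) and 1.85-fold in CTL cells (0.89, SE 0.09, adjusted p = 0.000387). Both calls held when any 1 of the 12 libraries was left out, with log2 fold changes of 0.69 to 0.74 in DKD cells (highest adjusted p = 0.0116) and 0.83 to 0.95 in CTL cells (0.00524). Between the lines, the log2 fold change was -0.14 with TNFα (SE 0.08, 95% interval -0.34 to 0.05, adjusted p = 0.441) and 0.02 untreated (SE 0.08, interval -0.18 to 0.21, adjusted p = 0.950). EGFR shares 186 exon bases with the antisense gene EGFR-AS1.

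ERBB3 and ERBB2 are relatives of EGFR. ERBB3 (chr12:56076799-56103505, plus strand) binds neuregulins, has little kinase activity of its own and signals by pairing with ERBB2 or EGFR. It had 183, 178 and 186 CPM in DKD cells with TNFα, against 149, 157 and 149 CPM in untreated DKD cells. In CTL cells it had 198, 198 and 223 CPM with TNFα, against 156, 186 and 183 CPM untreated. Treated and untreated libraries did not overlap in either line, but the size was small: log2 fold change 0.27 in DKD cells (SE 0.08, adjusted p = 0.200) and 0.24 in CTL cells (SE 0.08, adjusted p = 0.192). With the library number as a block both passed, at 0.0453 in DKD cells and 0.0490 in CTL cells. The DKD to CTL log2 fold change was -0.18 with TNFα (SE 0.08, adjusted p = 0.276), where the groups did not overlap, and -0.21 untreated (SE 0.08, adjusted p = 0.216), where they did.

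ERBB2 (chr17:39687914-39730426, plus strand), which has no known ligand and is the preferred partner of the other family members, had the opposite sign to EGFR and ERBB3 under TNFα but passed no test. It had 68.0, 72.2 and 80.5 CPM in DKD cells with TNFα, against 65.8, 86.4 and 84.8 CPM in untreated DKD cells. CTL cells had 72.9, 78.3 and 86.3 CPM with TNFα, against 77.1, 97.0 and 97.0 CPM untreated. Library 1 was the lowest in each group, and all groups overlapped. The TNFα log2 fold change was -0.10 in DKD cells (SE 0.13, adjusted p = 0.949) and -0.19 in CTL cells (SE 0.13, adjusted p = 0.602). Between the lines it was -0.11 with TNFα (95% interval -0.41 to 0.20) and -0.19 untreated (-0.50 to 0.11). ERBB2 shares 571 exon bases with MIEN1 and 194 with PGAP3, both on the other strand.

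MET (chr7:116672390-116798386, plus strand), the receptor of hepatocyte growth factor and a known substrate of PTPRJ, was the kinase of the set called lower in the knock-down line, and only with TNFα. ERBB3 also had negative DKD to CTL log2 fold changes, -0.18 with TNFα and -0.21 untreated, that were not called. MET had 178, 172 and 162 CPM in DKD cells with TNFα, against 215, 222 and 203 CPM in CTL cells with TNFα. Untreated, it had 211, 183 and 188 CPM in DKD cells, against 223, 217 and 194 CPM in CTL cells. The lines did not overlap with TNFα and overlapped without it. With TNFα the level in DKD cells was 0.799 times that in CTL cells (log2 fold change -0.32, SE 0.08, 95% interval -0.51 to -0.14, adjusted p = 0.0388), and untreated the log2 fold change was -0.12 (SE 0.08, interval -0.31 to 0.06, adjusted p = 0.509). The call with TNFα was lost without any one of 7 of the 12 libraries. These were DKD TNFα library 1, 2 or 3 (adjusted p = 0.0671, 0.0876 and 0.106), DKD untreated library 2 (0.0504) and CTL TNFα library 1, 2 or 3 (0.0919, 0.126 and 0.0679). It was also lost without the low-count filter (0.0641) and with only the 2 groups fitted (0.0636), while from libraries 2 and 3 alone it held (-0.35, adjusted p = 0.0176). The TNFα log2 fold change of MET was -0.19 in DKD cells (SE 0.08, adjusted p = 0.459), where the treated libraries lay below the untreated ones, and 0.01 in CTL cells (SE 0.08, adjusted p = 0.982), where they overlapped.

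FGFR4 (chr5:177086886-177098144, plus strand) is the FGF receptor of hepatocytes. It had 243, 185 and 222 CPM in DKD cells with TNFα, against 274, 235 and 267 CPM in untreated DKD cells. The CTL libraries had 227, 197 and 235 CPM with TNFα, against 311, 277 and 267 CPM untreated. The treated libraries lay below the untreated ones in CTL cells and overlapped them in DKD cells. The log2 fold change was -0.26 in DKD cells (SE 0.11, adjusted p = 0.475, and 0.0530 with the library number as a block). It was -0.38 in CTL cells (SE 0.11, 95% interval -0.64 to -0.11), which did not pass (adjusted p = 0.128) but did with the block (0.00698) and with DESeq2 (0.0319). Between the lines it was -0.02 with TNFα (interval -0.28 to 0.24) and -0.14 untreated (-0.40 to 0.12).

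**Figure D2:**
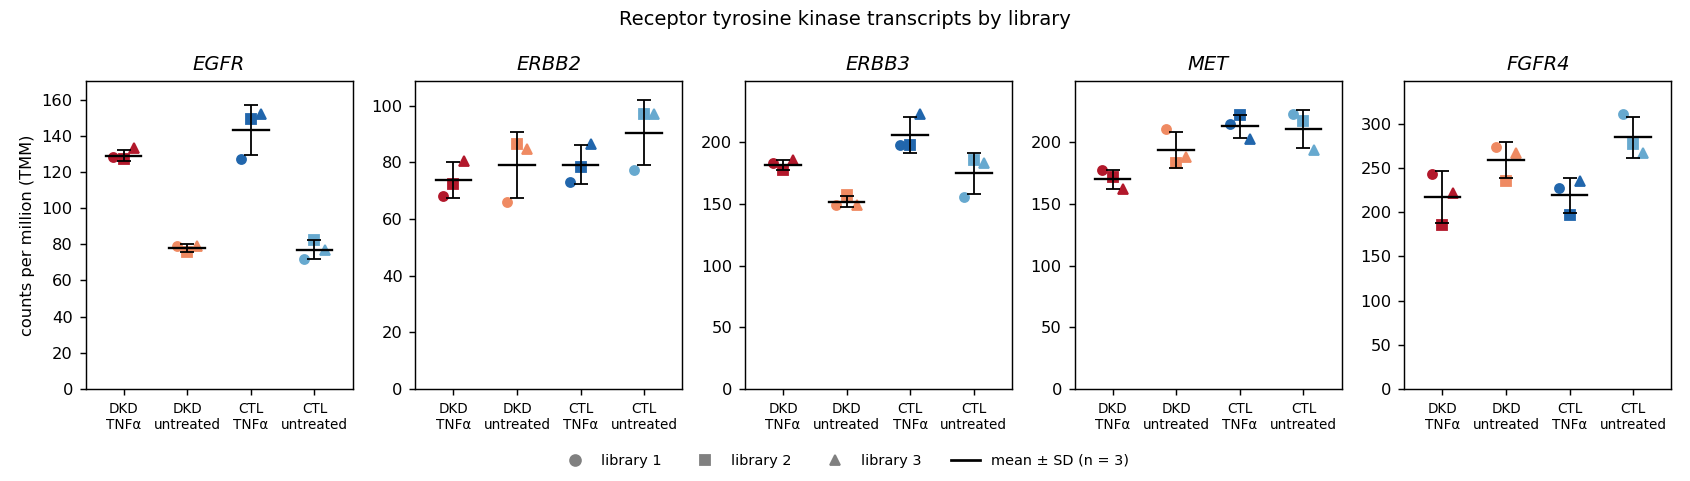
CPM (vertical axis, scaled with TMM factors, from 0) of the 5 receptor tyrosine kinase genes in each of the 4 groups, 1 point per library with the symbol showing the library number, and the mean ± SD of 3 libraries as lines. EGFR lies at 127 to 152 CPM in the 6 libraries with TNFα and at 71.7 to 82.5 CPM in the 6 untreated ones, and MET with TNFα lies at 162 to 178 CPM in DKD cells against 203 to 222 CPM in CTL cells.

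Counted over the set, TNFα raised 3 of 9 genes and lowered none in DKD cells, where 1.54% of all tested genes were called higher and 0.254% lower. It raised 3 of 9 and lowered none in CTL cells, where 1.90% of all tested genes were called higher and 0.726% lower. The 3 genes were EGFR, PTPRF and PTPRG in both lines. As the set was chosen with earlier results of these data known, its share beside that of all genes is a description and no test of enrichment. The 2 contrasts have no library in common, although they share 1 estimate of the spread. With the library number as a block, 4 rose and none fell in DKD cells (5.55% of all genes higher and 2.13% lower), and in CTL cells 4 rose and FGFR4 fell (7.94% higher and 4.70% lower). Of the 8 genes other than PTPRJ, none was higher and 1, MET, was lower in DKD than in CTL cells with TNFα, where 3.94% of all genes were called higher and 2.30% lower. Untreated, none was higher and 1, PTPRG, was lower, where 3.13% were called higher and 1.86% lower. With the block the lower genes were 2 with TNFα (10.6% of all genes higher and 8.79% lower) and 1 untreated (9.17% higher and 7.31% lower). With 8 genes, 1 or 2 calls are too few to be read against those shares. The median log2 fold change of the 8 was -0.12 with TNFα and -0.13 untreated, beside 0.00 and 0.01 over all tested genes, and their median absolute change was 0.16 and 0.17, beside 0.19 in both cases.

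The TNFα response of the 9 genes was then compared between the lines directly, as the response in DKD cells minus that in CTL cells. None of the 9 passed this test, nor did any of the 16118 genes with edgeR (0%), while 184 genes and no gene of the set had an unadjusted p under 0.05, and DESeq2 called 5 genes and none of the set. The 184 genes are a smaller share than that threshold alone gives when no gene differs. The fit without the block was therefore strict here and can miss a difference. With the library number as a block none of the 9 passed either. For EGFR the difference of log2 fold changes was -0.16 (SE 0.12, 95% interval -0.44 to 0.12), for PTPRG 0.16 (SE 0.15, interval -0.19 to 0.51) and for PTPRF 0.06 (SE 0.10, interval -0.18 to 0.30). For MET it was -0.20 (SE 0.11, interval -0.46 to 0.06) and for PTPRJ 0.22 (SE 0.19, interval -0.23 to 0.66). The calls of MET with TNFα and of PTPRG untreated are therefore not shown to depend on treatment, nor to be independent of it.

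**Figure D3:**
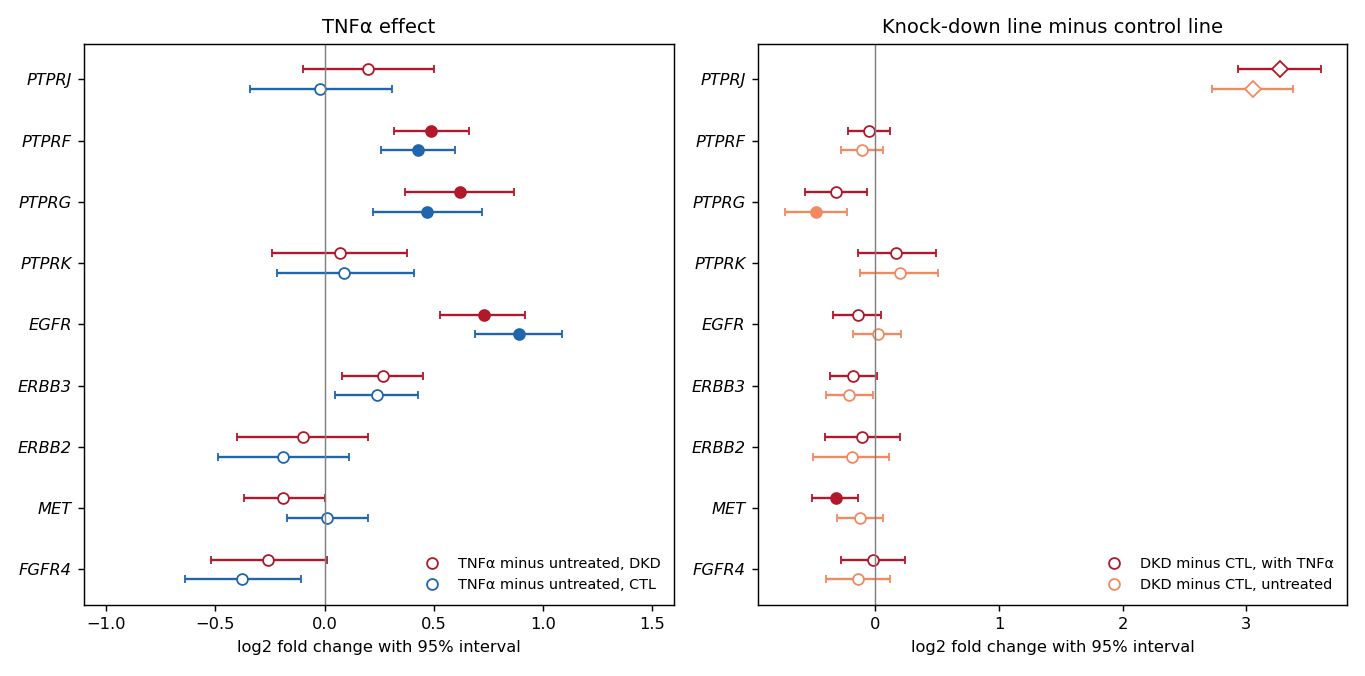
Log2 fold changes of the 9 genes with 95% intervals (horizontal axes), on the left for TNFα minus untreated in the DKD and the CTL line and on the right for DKD minus CTL with TNFα and untreated. Filled circles passed an adjusted p of 0.05, open circles did not, and the diamonds of PTPRJ on the right were not tested. EGFR, PTPRG and PTPRF are filled in both lines on the left, and PTPRJ lies at 3.27 and 3.05 on the right, where the other genes lie within 0.48 of 0.

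Levels can be set across genes only per length, here as mean CPM per kilobase of the longest coding transcript in GENCODE. On that scale FGFR4 was the most abundant of the 9 in every group, with 69.4 in DKD cells with TNFα, 82.9 in untreated DKD cells, 70.4 in CTL cells with TNFα and 91.3 in untreated CTL cells. PTPRJ was the least abundant in every group, with 2.98 and 2.60 in DKD cells with and without TNFα, against 0.310 and 0.313 in the matching CTL cells. PTPRF, PTPRK and PTPRG lay between 15.8 and 30.4 in all groups. Per length, then, the PTPRJ transcript in DKD cells stayed below those of its 3 relatives in the same cells.

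Because EGFR, PTPRF and PTPRG rose together with TNFα, the sequence around their RefSeq transcription starts is shown, from 250 bases before to 50 after the start (RefSeq, GRCh38.p14, all on the plus strand, 5′ to 3′). Such windows were matched for 7 of the 9 genes; PTPRJ and ERBB3 are named only. Capitals mark matches, on either strand, to the GC box GGGCGG or to the AP-1 motif TGANTCA. EGFR has a window at its first start and another at an internal start. The PTPRF window lies inside the gene as annotated in GENCODE, which begins at chr1:43525187, so it does not cover that first start.
EGFR, chr7:55018767-55019066: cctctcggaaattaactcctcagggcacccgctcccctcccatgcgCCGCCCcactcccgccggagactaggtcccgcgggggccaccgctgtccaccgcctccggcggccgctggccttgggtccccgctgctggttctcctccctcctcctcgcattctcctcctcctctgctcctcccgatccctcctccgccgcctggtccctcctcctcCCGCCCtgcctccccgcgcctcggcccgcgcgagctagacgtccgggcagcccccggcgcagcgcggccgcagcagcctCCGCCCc
EGFR internal start, chr7:55109589-55109888: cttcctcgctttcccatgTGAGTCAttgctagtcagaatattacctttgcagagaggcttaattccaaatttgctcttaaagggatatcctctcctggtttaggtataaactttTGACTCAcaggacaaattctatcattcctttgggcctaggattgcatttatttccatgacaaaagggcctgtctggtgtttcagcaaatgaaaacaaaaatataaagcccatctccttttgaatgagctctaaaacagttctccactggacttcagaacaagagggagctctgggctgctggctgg
PTPRG, chr3:61561321-61561620: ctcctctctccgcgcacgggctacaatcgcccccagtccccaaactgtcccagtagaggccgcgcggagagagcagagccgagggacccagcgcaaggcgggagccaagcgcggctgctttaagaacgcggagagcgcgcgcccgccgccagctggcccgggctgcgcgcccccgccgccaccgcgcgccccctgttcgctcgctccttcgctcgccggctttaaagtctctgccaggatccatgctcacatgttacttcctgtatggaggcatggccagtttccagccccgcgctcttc
PTPRF, chr1:43530633-43530932: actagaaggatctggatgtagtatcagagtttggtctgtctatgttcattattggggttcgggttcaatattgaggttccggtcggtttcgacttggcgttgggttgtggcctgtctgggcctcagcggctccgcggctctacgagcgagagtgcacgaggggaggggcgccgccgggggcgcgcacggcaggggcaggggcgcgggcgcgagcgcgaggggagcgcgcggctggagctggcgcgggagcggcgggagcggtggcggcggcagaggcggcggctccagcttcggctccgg
The first EGFR window is 75.3% G and C and holds 3 GC boxes, which 45% of 35116 RefSeq windows hold at least once. The internal EGFR window is 42% G and C and holds 2 AP-1 matches, where 7.71% of all windows hold at least 1 and 0.515% hold 2 or more. The PTPRG and PTPRF windows are each 68.7% G and C, with 34 and 37 CpG dinucleotides, and hold no match to the GC box, to AP-1 or to the NF-kB consensus, which 5.91% of all windows match. Among the other genes, the first of 2 FGFR4 windows has 7 GC boxes and 1 NF-kB match, which overlaps a GC box, MET has 3 GC boxes, PTPRK has 1 and ERBB2 has 1 AP-1 match. A match describes letters only, and a window without one says nothing of the factor. The counts are per gene, so the data do not show which start was used.

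The other genes of the pathway were read from 7 lists in order of role. A gene that passed the filter on low counts only through the side where it is high had to differ, so counts and medians are over genes above the filter's minimum in at least 3 libraries on each side (both lines, or both treatments). Among 16 other receptor-type phosphatases, 9 were tested. Between the lines 6 could be counted, and 1 was higher and none lower in DKD than in CTL cells with TNFα as well as untreated, where 3.94% and 3.13% of all tested genes were called higher. This was PTPRU, a relative of PTPRK, with 43.7, 43.4 and 48.1 CPM in DKD cells with TNFα against 16.4, 15.8 and 17.4 CPM in CTL cells with TNFα. Untreated, it had 40.4, 50.4 and 45.2 CPM in DKD cells against 20.0, 23.2 and 20.7 CPM in CTL cells. The lines were well separated in both, and the log2 fold change was 1.45 with TNFα (SE 0.11, adjusted p = 2.76e-05) and 1.09 untreated (SE 0.10, adjusted p = 0.000212). Both calls held without any 1 library. The median log2 fold change of the 6 was 0.09 with TNFα and 0.22 untreated, beside 0.00 and 0.01 over all genes. Under TNFα 7 could be counted and none was called in either line. With the library number as a block, 2 were higher and 1 lower in DKD cells with TNFα, against 10.6% and 8.79% of all genes, and 2 were higher and none lower untreated, against 9.17% and 7.31%. Under TNFα with the block none was called in DKD cells and 1 fell in CTL cells, against 2.13% and 4.70% of all genes called lower.

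Among 36 other receptor tyrosine kinases, 19 were tested, and 4 were higher and none lower in DKD cells with TNFα, where 3.94% of all genes were called higher and 2.30% lower. Untreated, 2 were higher and none lower, where 3.13% were called higher and 1.86% lower. ROR1, a Wnt5a receptor mostly expressed in embryos and tumours, had 20.0, 13.6 and 12.3 CPM in DKD cells with TNFα against 3.10, 2.42 and 2.52 CPM in CTL cells with TNFα, and 28.1, 16.6 and 17.2 CPM in untreated DKD cells against 4.62, 3.65 and 3.10 CPM in untreated CTL cells. Its log2 fold change was 2.51 with TNFα (SE 0.27, adjusted p = 0.000339) and 2.44 untreated (SE 0.27, adjusted p = 0.000504), and library 1 was the highest in the DKD groups. MERTK, a receptor for the bridging ligands GAS6 and PROS1, was higher by 0.76 with TNFα (SE 0.10, adjusted p = 0.00110) and by 0.56 untreated (SE 0.10, adjusted p = 0.00708, and 0.0653 with only the 2 groups fitted). The collagen receptor DDR2 averaged 23.3 ± 4.18 CPM in DKD cells with TNFα against 9.76 ± 2.25 CPM in CTL cells with TNFα (log2 fold change 1.26, SE 0.24, adjusted p = 0.00898). The insulin receptor INSR averaged 97.1 ± 15 against 68.2 ± 4.54 CPM in the same groups (0.51, SE 0.12, adjusted p = 0.0323). The untreated log2 fold change of DDR2 was 0.88 (SE 0.24, adjusted p = 0.0595, and 0.00167 with the library number as a block). That of INSR was 0.35 (SE 0.12, adjusted p = 0.155, and 0.00871 with the block). The INSR call was lost without any one of 6 libraries, namely DKD TNFα 1, CTL TNFα 1, 2 or 3 and CTL untreated 2 or 3 (adjusted p up to 0.129), and with only the 2 groups fitted (0.0628). The other calls of this list held without any 1 library. The median of the 19 was 0.30 with TNFα and 0.21 untreated, beside 0.00 and 0.01 over all genes. No kinase of the list was called under TNFα. With the block, 6 were higher and none lower in DKD cells with TNFα, against 10.6% and 8.79% of all genes, and 5 were higher and 1 lower untreated, against 9.17% and 7.31%. Under TNFα with the block 1 rose and 1 fell in each line, against 5.55% and 2.13% of all genes in DKD cells and 7.94% and 4.70% in CTL cells.

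No ligand of these receptors was called between the lines or under TNFα, of 12 tested among 22. The list holds EGF-family ligands, hepatocyte growth factor, FGFs and 2 proteins reported to bind PTPRJ, thrombospondin 1 (THBS1) and syndecan 2 (SDC2). With the library number as a block, of the 10 that could be counted under TNFα, 3 rose and none fell in DKD cells (5.55% and 2.13% of all genes), and 3 rose and 2 fell in CTL cells (7.94% and 4.70%). Between the lines, of the 11 that could be counted, 2 were higher and 1 lower with the block, with TNFα (10.6% and 8.79% of all genes) as well as untreated (9.17% and 7.31%). The median log2 fold change of the 11 between the lines was -0.02 with TNFα and 0.04 untreated. Of the co-receptors, shedding enzymes and activating proteases, 13 of 14 were tested. Between the lines 12 could be counted, and none was higher and 2 were lower in DKD cells, with TNFα as well as untreated, where 2.30% and 1.86% of all genes were called lower. ADAM10, known from mouse cells as a sheddase of EGF and betacellulin, had 115, 113 and 98.2 CPM in DKD cells with TNFα against 165, 161 and 144 CPM in CTL cells with TNFα. Untreated it had 114, 101 and 90.5 CPM in DKD cells against 162, 140 and 139 CPM in CTL cells. The lines did not overlap, and the log2 fold change was -0.53 with TNFα (SE 0.11, adjusted p = 0.0140) and -0.53 untreated (SE 0.11, adjusted p = 0.0156). ADAM17, the main sheddase of TGF-alpha and amphiregulin, was lower with TNFα (-0.40, SE 0.10, adjusted p = 0.0328). Its untreated log2 fold change was -0.33 (SE 0.10, adjusted p = 0.0908, and 0.00518 with the library number as a block). The membrane protease hepsin (HPN), which can activate pro-hepatocyte growth factor, was lower untreated (-0.63, SE 0.15, adjusted p = 0.0343). With TNFα the HPN log2 fold change was -0.27 (SE 0.15, adjusted p = 0.399, and 0.181 with the block).

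These calls were sensitive to single libraries. ADAM10 was lost with TNFα without CTL TNFα library 1 or 2 (adjusted p up to 0.0529) and untreated without DKD untreated library 2 or 3 or CTL untreated library 1 (up to 0.0676). ADAM17 was lost without DKD TNFα 2 or 3, CTL TNFα 1 or 2, or CTL untreated 3 (up to 0.112). HPN was lost without any DKD untreated library, DKD TNFα 3, CTL TNFα 2 or CTL untreated 2 or 3 (up to 0.161). With only the 2 groups fitted, ADAM17 had an adjusted p of 0.0680, and untreated ADAM10 and HPN had 0.0868 and 0.102. The gene left out was KL, the co-receptor klotho, which passed the filter on low counts only through the DKD libraries, so its counts are given with no test. It was picked out after its values were seen. It had 8 to 20 counts in DKD libraries with TNFα against 0 to 4 in CTL libraries with TNFα, and 11 to 20 counts in untreated DKD libraries against 1 to 2 in untreated CTL libraries. The median of the 12 between the lines was -0.13 with TNFα and 0.11 untreated. With the block, 2 were higher and 3 lower in DKD cells with TNFα, against 10.6% and 8.79% of all genes, and 3 were higher and 3 lower untreated, against 9.17% and 7.31%.

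Under TNFα, none of these 12 co-receptor and protease genes was called in DKD cells and 1 rose in CTL cells, where 1.54% and 1.90% of all genes were called higher. With the block 2 rose and none fell in DKD cells (5.55% and 2.13% of all genes), and 3 rose and 1 fell in CTL cells (7.94% and 4.70%). RHBDF2, which escorts ADAM17 to the cell surface, had 29.7, 48.0 and 49.1 CPM with TNFα against 13.5, 20.5 and 17.4 CPM untreated in CTL cells (log2 fold change 1.3, SE 0.26, adjusted p = 0.0231). In DKD cells it had 32.1, 42.2 and 52.4 CPM with TNFα against 16.5, 24.5 and 25.2 CPM untreated (0.94, SE 0.25, adjusted p = 0.123, and 0.000274 with the block). The call in CTL cells was lost without CTL TNFα library 2 or 3 or any CTL untreated library (adjusted p up to 0.121).

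Of the adaptors, kinases and cytosolic phosphatases below the receptors, 27 of 28 were tested and 26 could be counted. With TNFα 2 rose and none fell in each line, where 1.54% of all genes were called higher in DKD cells and 1.90% in CTL cells. PIK3R1, the regulatory subunit of PI 3-kinase, had 64.9, 59.8 and 59.3 CPM in DKD cells with TNFα against 48.0, 42.4 and 39.2 CPM in untreated DKD cells, and 72.8, 87.6 and 79.1 CPM in CTL cells with TNFα against 44.7, 48.2 and 43.7 CPM in untreated CTL cells. The rise was 0.51 in DKD cells (SE 0.10, adjusted p = 0.0279) and 0.81 in CTL cells (SE 0.10, adjusted p = 0.00159). PTPN3, a cytosolic phosphatase with FERM and PDZ domains, rose by 0.65 in DKD cells (SE 0.09, adjusted p = 0.00373) and 0.59 in CTL cells (SE 0.09, adjusted p = 0.00591). Between the lines PIK3R1 was the 1 gene of the list called, lower in DKD cells with TNFα (-0.38, SE 0.10, adjusted p = 0.0445, with 2.30% of all genes called lower), and none was called untreated. The median of the 26 between the lines was -0.11 with TNFα and -0.08 untreated. With the block, 2 were higher and 4 lower in DKD cells with TNFα, against 10.6% and 8.79% of all genes, and 1 was higher and 2 lower untreated, against 9.17% and 7.31%. Under TNFα with the block 2 rose in DKD cells and 4 in CTL cells, against 5.55% and 7.94% of all genes. Leaving out single libraries ended the PIK3R1 call in DKD cells in 8 of 12 cases (adjusted p up to 0.142), all but DKD untreated 1, CTL TNFα 1 and 2 and CTL untreated 1. It ended the PIK3R1 call between the lines in 9 of 12 cases (up to 0.170), all but DKD untreated 1 and 3 and CTL TNFα 1, as did fitting without the filter on low counts (0.0708). The PTPN3 call in CTL cells was lost without CTL untreated 3 (0.0579). With only the 2 groups fitted, the TNFα rise of PTPN3 and PIK3R1 in DKD cells had an adjusted p of 0.157 and 0.243, and PIK3R1 between the lines had 0.0823.

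All 18 negative regulators of receptor kinases were tested, and 1 was higher and 2 lower in DKD cells with TNFα as well as untreated. Of all genes, 3.94% were called higher and 2.30% lower with TNFα, and 3.13% higher and 1.86% lower untreated. SPRY1, a Sprouty protein that damps ERK signalling, had 36.5, 41.1 and 36.9 CPM in DKD cells with TNFα against 58.9, 59.2 and 51.8 CPM in CTL cells with TNFα. Untreated, it had 32.6, 31.2 and 27.3 CPM in DKD cells against 47.4, 48.4 and 44.4 CPM in CTL cells. The lines were separate in both, and the log2 fold change was -0.57 with TNFα (SE 0.10, adjusted p = 0.00469) and -0.62 untreated (SE 0.10, adjusted p = 0.00345). CBL, the ubiquitin ligase that sends activated EGFR and MET to degradation, averaged 61.7 ± 4.70 CPM in DKD cells with TNFα against 90.9 ± 6.84 CPM in CTL cells with TNFα (-0.56, SE 0.11, adjusted p = 0.0142), and 58.0 ± 9.20 against 83.4 ± 4.04 CPM untreated (-0.52, SE 0.11, adjusted p = 0.0229). GRB14, an adaptor that inhibits the insulin receptor, was higher, at 11.3 ± 2.17 against 6.27 ± 0.489 CPM with TNFα (0.85, SE 0.16, adjusted p = 0.00815) and 15.5 ± 0.792 against 7.86 ± 0.926 CPM untreated (0.98, SE 0.16, adjusted p = 0.00393). The SPRY1 and GRB14 calls held without any 1 library. CBL was lost with TNFα without DKD TNFα 3 or CTL TNFα 1 (adjusted p up to 0.0539) and untreated without DKD untreated 2 or 3 or CTL untreated 1 or 2 (up to 0.0908), and with only the 2 untreated groups fitted it had 0.119. The median of the 18 between the lines was 0.03 with TNFα and -0.07 untreated, and none was called under TNFα. With the block, 3 were higher and 4 lower in DKD cells with TNFα, against 10.6% and 8.79% of all genes, and 2 were higher and 3 lower untreated, against 9.17% and 7.31%. Under TNFα with the block 2 rose in DKD cells and 3 in CTL cells, against 5.55% and 7.94% of all genes.

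Of 17 genes known as targets of the ERK pathway, 16 were tested, and 1 was called in any of the comparisons. PHLDA1 rose in CTL cells, where 1.90% of all genes were called higher, with 342, 407 and 313 CPM with TNFα against 231, 261 and 232 CPM untreated (log2 fold change 0.55, SE 0.10, adjusted p = 0.0170). In DKD cells it had 290, 324 and 300 CPM with TNFα against 221, 239 and 211 CPM untreated (0.45, SE 0.10, adjusted p = 0.0568, and 0.00130 with the block). The call in CTL cells was lost without CTL TNFα 2 or CTL untreated 1 or 3 (adjusted p up to 0.111). The median of the 16 was 0.29 under TNFα in DKD cells and 0.28 in CTL cells, beside -0.01 and 0.00 over all genes, and -0.26 between the lines with TNFα and -0.15 untreated, beside 0.00 and 0.01. With the block, 4 rose and none fell in DKD cells and 8 rose and none fell in CTL cells, against 5.55% and 7.94% of all genes called higher. Between the lines with the block, none was higher and 7 were lower with TNFα, and none was higher and 2 were lower untreated, against 8.79% and 7.31% of all genes called lower. SPRY2 and SPRY4 belong both to this list and to that of the negative regulators, so the counts of these lists are not separate. The response difference between the lines was called for no gene of any of the 7 lists.

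**Figure D4:**
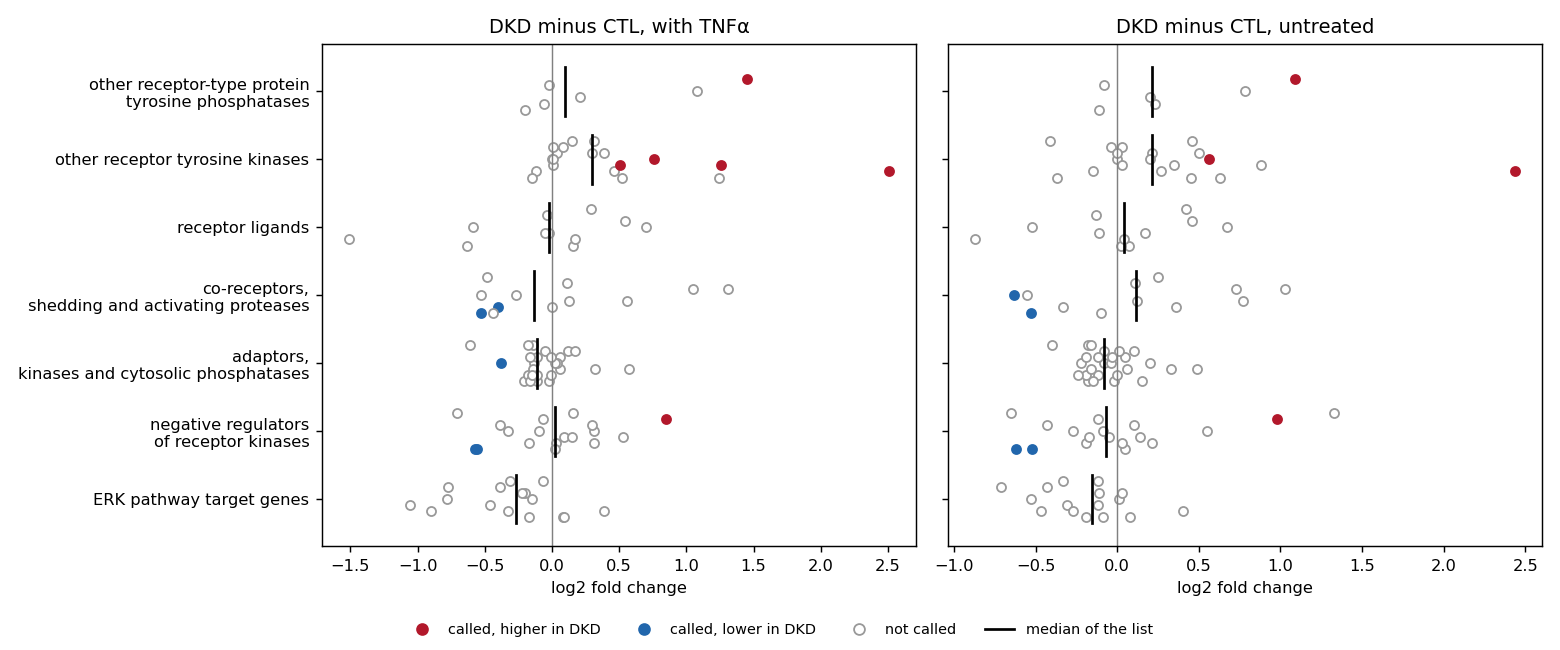
Log2 fold change of DKD minus CTL (horizontal axes), with TNFα on the left and untreated on the right, for each gene of the 7 lists (rows) above the count filter's minimum in both lines. Each circle is 1 gene, red where called higher and blue where called lower in DKD cells at an adjusted p under 0.05, and the black bar is the list's median. Most circles are open, and 4 of the 19 tested receptor tyrosine kinases are called higher with TNFα.

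To see which transcripts followed the profile of PTPRJ, each gene's log2 CPM was centred over the 12 libraries and the root mean square distance to the centred PTPRJ profile was taken, among 11143 genes with an average log2 CPM of at least 2. The closest were SYNE3 and MYO10 (0.30 each), JAK2 and NFIB (0.32 each) and BTBD11 (0.38), all on the log2 scale. SYNE3 encodes a nuclear envelope protein of the nesprin family, MYO10 an unconventional myosin of filopodia, JAK2 a cytokine receptor kinase and NFIB a nuclear factor I transcription factor. MYO10 averaged 84.8 ± 17.2 CPM in DKD cells with TNFα and 75.5 ± 19.1 untreated, against 12.7 ± 3.58 in CTL cells with TNFα and 12.1 ± 1.6 untreated. JAK2 averaged 9.42 ± 1.21 and 6.11 ± 0.774 CPM in DKD cells with and without TNFα, against 1.25 ± 0.324 and 0.876 ± 0.0318 CPM in the matching CTL cells. The same 5 genes came first with RLE size factors. A gene with a large difference between the lines and little else has such a profile by construction, so the list describes these 12 libraries and nothing more.

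**Figure D5:**
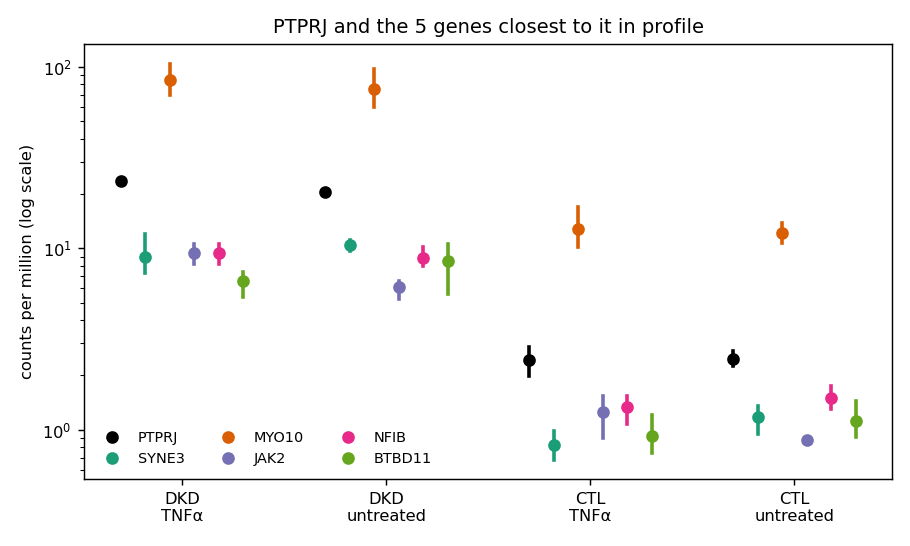
Mean CPM (vertical axis, log scale) of PTPRJ and of the 5 genes closest to it in profile, by group, with vertical lines from the lowest to the highest of 3 libraries. All 6 genes lie higher in both DKD groups than in both CTL groups.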

How the data were processed

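RNA sequencing of 12 HepG2 libraries was analysed, 3 in each of 4 groups set by the labels. The authors deposited estimated counts per gene symbol, given as whole numbers. CASAVA 1.7, Salmon 0.14.0, DESeq2 and GRCh38/hg38 are named in the submitters' processing notes; which annotation and strand setting were used is not stated there. A second table of normalised values was not used. Counts of all 16118 genes passing filterByExpr (minimum count 10, minimum total 15) were fitted in edgeR 4.0.16 (R 4.3.3) with TMM factors, 1 mean per group and 8 residual degrees of freedom. The quasi-likelihood test was used with Benjamini-Hochberg adjustment over all genes, and genes with an adjusted p under 0.05 were called. The fitting steps were tested on simulated data. CPM uses the same factors, and 1 count was worth 0.0238 to 0.0320 CPM. The 95% intervals were taken from the SE with 8 residual degrees of freedom. They can be wider than the quasi-likelihood test implies. Same-numbered libraries deviated together in each of 18 pairs (r of 0.193 to 0.695, against -0.544 to 0.311 in 36 other pairs), so the numbers were taken to pair the libraries. Values with the number as a block are given where they change a call of a member. For the lists, counts with the block are given, and block values of single genes only in places. Replicates differed by more than sampling noise, with a chi-square of 12.2 to 142 per degree of freedom. Alternatives were DESeq2 1.42.0, RLE size factors, no filter, the replicate block, only the groups compared, libraries 2 and 3 alone, and each library left out. The members, lists and tests were chosen with earlier results of these data known. Named from each list and contrast were up to 4 called genes with the smallest p and an average log2 CPM of at least 2, and the 5 genes closest to PTPRJ; other genes named are marked. Gene positions are from GENCODE (GRCh38), and promoter windows from RefSeq (GRCh38.p14).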

Additional observations from a re-analysis of the deposited data

How the results depend on the processing

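The calls moved more with the model than the fold changes did. Over the 45 fold changes of the 9 genes, direction and side of the threshold were kept for all 45 with RLE size factors, 43 with DESeq2, 43 without the filter and 41 with the replicate block, which changed no call of a member other than those given above. The 5 comparisons are taken in turn. For TNFα in DKD cells, 3 genes of the set were called; 1 was called with only the 2 groups fitted, and 2 to 3 with a library left out. All genes called there numbered 289, but 1237 with the replicate block, 651 with DESeq2, 41 with only the 2 groups, 1360 from libraries 2 and 3, and 127 to 357 with a library left out. For TNFα in CTL cells, 3 genes of the set were called, 5 with the replicate block, and 1 to 3 with a library left out. All genes called numbered 423, but 2037 with the block, 1024 with DESeq2, 691 with only the 2 groups, 2225 from libraries 2 and 3, and 149 to 709 with a library left out. For DKD against CTL with TNFα, 1 of the set was called, 2 with the block, with DESeq2 and from libraries 2 and 3, 0 without the filter or with only the 2 groups, and 0 to 2 with a library left out. All genes called numbered 1005, but 3133 with the block, 1752 with DESeq2, 2375 from libraries 2 and 3, and 572 to 1545 with a library left out. For DKD against CTL untreated, 1 of the set was called, 0 with only the 2 groups, and 0 to 1 with a library left out. All genes called numbered 803, but 2657 with the block, 1434 with DESeq2, 332 with only the 2 groups, 1983 from libraries 2 and 3, and 423 to 917 with a library left out. For the response difference no gene was called, 5 with DESeq2 and 0 to 1 with a library left out, and none of the set in any of these. Signs turned only in values that passed no test. From libraries 2 and 3, PTPRJ under TNFα in CTL cells was 0.04, EGFR untreated between the lines -0.03 and the PTPRK response difference 0.05. With a library left out, PTPRK under TNFα in DKD cells ranged from -0.03 to 0.22, PTPRJ and MET under TNFα in CTL cells from -0.17 to 0.09 and from -0.06 to 0.05, FGFR4 between the lines with TNFα from -0.11 to 0.08, EGFR between the untreated lines from -0.03 to 0.06, and the response differences of PTPRK, ERBB3 and ERBB2 from -0.12 to 0.14, -0.01 to 0.11 and -0.04 to 0.19. Depth did not limit 8 of the 9 genes, which had at least 2407 counts in every library; PTPRJ had as few as 81 in CTL cells, and its counting error there was about 10.0% per library.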

Other observations

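Ligands of EGFR and targets of ERK were looked at further, after their values were seen and beyond the rule for named genes. Their p-values are given as description only, since the genes were picked on the same values. Amphiregulin (AREG) averaged 47.1 ± 33.5 CPM in DKD cells with TNFα against 13.5 ± 9.39 CPM in untreated DKD cells, and 72.8 ± 22.0 CPM in CTL cells with TNFα against 12.9 ± 4.68 CPM in untreated CTL cells (SD, n = 3 each). The DKD libraries ranged from 8.47 to 68.4 CPM with TNFα and from 2.62 to 19.0 CPM untreated, so these groups overlapped. The CTL libraries did not, at 49.5 to 93.2 CPM with TNFα and 8.15 to 17.5 CPM untreated. In the edgeR fit the log2 fold change was 1.80 in DKD cells (SE 0.77, adjusted p = 0.440) and 2.5 in CTL cells (SE 0.78, adjusted p = 0.144), and with the library number as a block the adjusted p was 0.0355 and 0.00463. Epiregulin (EREG) had a similar pattern of values, with 92.4 ± 58.0 CPM in DKD cells with TNFα against 34.2 ± 21.9 CPM untreated, and 263 ± 74.9 CPM in CTL cells with TNFα against 62.4 ± 28.6 CPM untreated. Its DKD libraries overlapped, at 29.6 to 144 CPM with TNFα and 10.3 to 53.4 CPM untreated. In edgeR its TNFα change had an adjusted p of 0.470 in DKD cells and 0.138 in CTL cells, and 0.0165 and 0.00125 with the block. With TNFα, EREG was lower in DKD than in CTL cells by edgeR with the block (log2 fold change -1.51, adjusted p = 0.00240) but not without it (adjusted p = 0.224). The same held untreated (log2 fold change -0.87, adjusted p = 0.0484 with the block and 0.562 without it). The response difference of EREG was -0.65 (SE 0.88) and was not called. TGF-alpha (TGFA) averaged 58.7 ± 7.70 CPM in DKD cells with TNFα against 45.3 ± 1.72 CPM untreated, and 60.6 ± 4.92 CPM in CTL cells with TNFα against 48.8 ± 1.5 CPM untreated (edgeR with the block, adjusted p = 0.0135 in DKD cells and 0.0225 in CTL cells; without it, 0.134 and 0.174).

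With the library number as a block, 4 of 16 ERK targets rose with TNFα in DKD cells and 8 in CTL cells (5.55% and 7.94% of all genes). For FOS and EGR1 no rise was seen, with TNFα log2 fold changes of -0.45 (SE 0.93) and -0.27 (SE 1.04) in DKD cells. In CTL cells they were -0.01 (SE 0.92) and -0.05 (SE 1.04). Their libraries differed widely, in untreated DKD cells from 1.45 to 26.6 CPM for FOS and from 9.30 to 266 CPM for EGR1. A rise or a fall could therefore be missed. Between the lines with TNFα, 7 were lower with the block (8.79% of all genes), while DUSP4 and ETV5 had log2 fold changes of 0.39 and 0.09. Among these ERK targets, IER3 averaged 28.4 ± 9.83 CPM in DKD cells with TNFα, against 48.6 ± 6.30 CPM in CTL cells with TNFα, and 17.0 ± 2.74 CPM in untreated DKD cells, against 24.6 ± 5.70 CPM in untreated CTL cells. Between the lines with TNFα its log2 fold change was -0.78 (SE 0.26), with an edgeR adjusted p of 0.113, and 0.00698 with the block. Between the untreated lines it was -0.53 (SE 0.26), with an edgeR adjusted p of 0.330, and 0.0597 with the block. DUSP6, a phosphatase that switches off ERK, averaged 105 ± 3.76 CPM in DKD cells with TNFα against 83.5 ± 20.6 CPM untreated, and 117 ± 13.5 CPM in CTL cells with TNFα against 82.7 ± 12.6 CPM untreated. Its TNFα change was called by edgeR with the block in CTL cells (adjusted p = 0.0108) and not in DKD cells (0.0635). The difference of this TNFα response between the lines was -0.16 (SE 0.24) and was not called.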
